A study of Mus musculus with 24 samples.

Results

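The facilitative glucose transporters considered here were the products of 8 genes of the solute carrier family 2, *Slc2a1*, *Slc2a2*, *Slc2a3*, *Slc2a4*, *Slc2a5*, *Slc2a8*, *Slc2a9* and *Slc2a12*. They were chosen by name, and every non-control array probe whose accession belongs to one of them was taken. Of the 8 genes, 7 had a probe, 1 probe each, among 21368 named genes and 55681 probes, and no probe was matched to *Slc2a12* here. The study compared male mice that carry a homozygous knockin mutation of *Rap1* (the gene *Terf2ip*), which prevents the RAP1 protein from binding TRF2 at telomeres, with wild-type (WT) littermates. The knockin line had been backcrossed repeatedly to C57BL/6N (C57BL6 in the labels), and the allele was present in all cells of the knockin animals. Liver, brain, heart and skeletal muscle of the same 6 mice were each hybridized to a 1-color Agilent mouse array, which gave 24 arrays, 3 WT and 3 *Rap1* KI/KI in each tissue. Individual mice are named by genotype and number (WT1, WT2, WT3, KI1, KI2, KI3), and their age was 5 months for WT1 and KI1 and 2 months for the remaining 4.

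Facilitative transporters carry sugars across membranes down their concentration gradient, without using energy. Members of class I, GLUT1 to GLUT4, are encoded by *Slc2a1* to *Slc2a4* and differ in affinity and in the cells that use them. GLUT1 supplies basal uptake and carries glucose across the blood-brain barrier, GLUT2 is the low-affinity transporter of hepatocytes, GLUT3 is the high-affinity transporter of neurons, and GLUT4 is moved to the surface of muscle and fat cells by insulin. Class II includes GLUT5 (*Slc2a5*), a fructose transporter, and GLUT9 (*Slc2a9*), a transporter of urate. Class III includes GLUT8 (*Slc2a8*), which resides mostly on intracellular membranes, and GLUT12 (*Slc2a12*).

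RefSeq promoter windows (GRCm38.p6, 250 bases before to 50 bases after the start) were given for 6 of the 8 genes, *Slc2a1*, *Slc2a2*, *Slc2a5*, *Slc2a8*, *Slc2a9* and *Slc2a12*. The windows shown are those of the gene with the smallest difference between tissues on the arrays, *Slc2a8* (chr2:32982034-32982333, minus strand), of *Slc2a1* (chr4:119108495-119108794, plus strand), and of the gene with the largest difference, *Slc2a2* (chr3:28697653-28697952, plus strand). They were chosen after the levels had been seen. Each is written 5′ to 3′ on the strand of the gene, and capitals mark matches on either strand to short motifs. These were the TATA box (searched as TATAAA and found in 13.6% of 32841 promoter windows of the same length), the CCAAT box (searched as those letters, 37.4% of the windows), the GC box (searched as GGGCGG, 35.7% of the windows) and a nuclear receptor element (searched as AGGTCA, 16.3% of the windows).
*Slc2a8*: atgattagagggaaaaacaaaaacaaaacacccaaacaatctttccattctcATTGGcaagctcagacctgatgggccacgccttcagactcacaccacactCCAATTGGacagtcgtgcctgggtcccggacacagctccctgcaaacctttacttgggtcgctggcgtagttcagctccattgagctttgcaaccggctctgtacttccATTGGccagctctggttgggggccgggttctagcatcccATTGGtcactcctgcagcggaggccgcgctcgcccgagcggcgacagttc
*Slc2a1*: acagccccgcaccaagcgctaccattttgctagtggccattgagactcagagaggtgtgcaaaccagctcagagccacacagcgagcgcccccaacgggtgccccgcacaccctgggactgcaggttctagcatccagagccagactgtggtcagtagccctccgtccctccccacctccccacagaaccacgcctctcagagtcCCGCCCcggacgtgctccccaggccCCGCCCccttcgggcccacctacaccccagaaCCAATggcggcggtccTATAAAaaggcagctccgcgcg
*Slc2a2*: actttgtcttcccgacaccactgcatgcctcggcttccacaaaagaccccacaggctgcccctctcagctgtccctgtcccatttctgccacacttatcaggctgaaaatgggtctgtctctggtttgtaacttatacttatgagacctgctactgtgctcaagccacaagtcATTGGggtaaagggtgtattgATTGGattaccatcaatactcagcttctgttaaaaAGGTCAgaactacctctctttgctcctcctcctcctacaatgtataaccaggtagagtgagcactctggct
The *Slc2a8* window holds 5 matches to the CCAAT letters, of which 1 pair overlaps, and none to the other motifs, with 55.7% G and C and 14 CpG pairs. The *Slc2a1* window holds 2 matches to the GC box letters, 1 to CCAAT and 1 to the TATA box letters, of which the last and the CCAAT match begin 28 and 12 bases after the annotated start, with 65.3% G and C and 18 CpG pairs, while the *Slc2a2* window holds 2 matches to CCAAT and 1 to the nuclear receptor letters, with 48% G and C and 2 CpG pairs. The windows not shown had 65.3% G and C and 15 CpG pairs (*Slc2a5*), 48.3% and 2 (*Slc2a9*) and 47% and 6 (*Slc2a12*). The median of all windows was 52.7% G and C and 7 CpG pairs. These are matches of letters, and binding at them was not measured.

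A level is the log2 of a probe's processed signal after division by the array's own 75th percentile, which thus stands at 0, and 1 unit is a 2-fold difference. Probes differ in how brightly they hybridize, so a level was compared between tissues or genotypes for the same gene and not between genes. The 75th percentile ranged from 470.7 to 1389 intensity units over the 24 arrays, and 56.5% to 72.7% of the probes were well above background. The muscle arrays were the dimmest, at 470.7 to 529.2. All livers were on 1 slide and all muscles on another, while brains and hearts were each on 2 slides. Tissue and slide thus cannot be fully told apart, and no comparison between tissues took the slide into account. The number of arrays limits the precision. Markers of hepatocytes, neurons, cardiomyocytes and skeletal fibres were highest in the labelled tissues. The summed level of 6 hepatocyte markers (log2 of the summed scaled signals) was 10.77 to 11.60 in the liver and at most 6.96 elsewhere, and that of 7 neuron markers was 8.12 to 8.83 in the brain and at most 5.70 elsewhere. That of 6 cardiomyocyte markers was 10.56 to 11.43 in the heart and at most 2.55 elsewhere, and that of 7 skeletal fibre markers was 11.99 to 12.38 in the muscle and at most 7.56 elsewhere. *Terf2ip*, whose transcript is kept in the point mutant so that its level does not check the labels, was well above background on all 24 arrays, with a genotype difference (*Rap1* KI/KI minus WT) of 0.12 (standard error 0.27), -0.02 (0.24), -0.41 (0.23) and -0.28 (0.21) in the liver, brain, heart and muscle and limma adjusted p of 1, 1, 0.66 and 0.94. Since whole tissues were used, fewer cells of a type and less RNA per cell cannot be told apart.

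The first comparison was between tissues. *Slc2a2*, *Slc2a5* and *Slc2a9* were highest in the liver, *Slc2a4* in the muscle followed by the heart, and *Slc2a1* and *Slc2a3* in the brain, while *Slc2a1* and *Slc2a8* were above the 75th percentile in all 4 tissues. All 24 arrays were fitted together with limma, with both genotypes weighted equally, and p was adjusted over 42463 probes. Of 42 tests (7 genes in 6 pairs of tissues), 36 passed an adjusted p of 0.05. Liver and brain differed in 7 of 7 genes, where 79% of all probes tested did so. Liver and heart differed in 6 of 7 (66.7% of all probes), liver and muscle in 6 of 7 (71.1%), brain and heart in 7 of 7 (67.7%), brain and muscle in 5 of 7 (70.2%) and heart and muscle in 5 of 7 (43.5%). Most probes differed in each pair except heart and muscle, and the counts of transporters are read against those shares. The calls between brain and heart and between heart and muscle include *Slc2a2*. It was well above background on 0 of 6 brains, 3 of 6 hearts and 0 of 6 muscles. Its test between brain and muscle, which was not called, compared only signals not well above background.

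**Figure D1:**
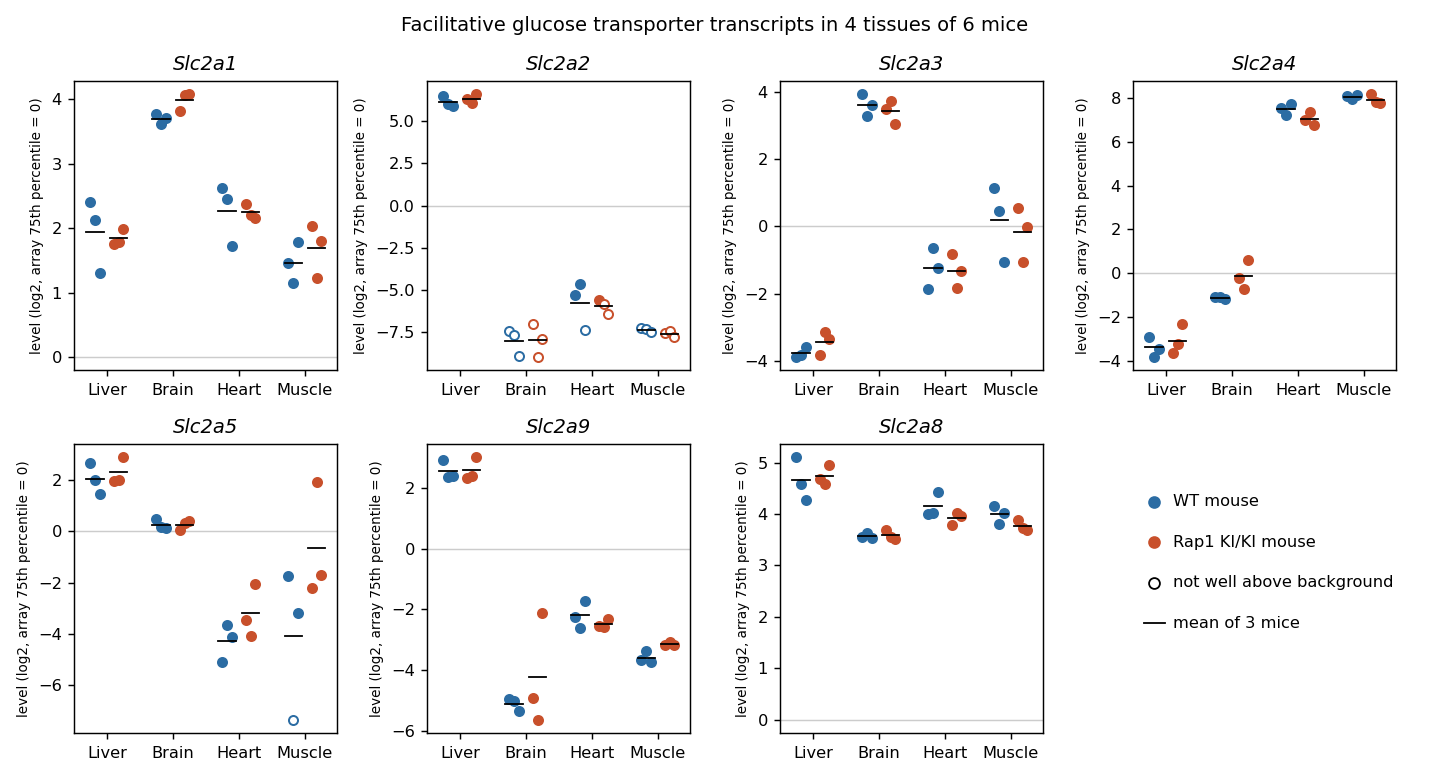
Level of each transporter transcript (log2, 0 is the 75th percentile of the array, vertical axis) in the 4 tissues (horizontal axis), 1 point per mouse, WT in blue and *Rap1* KI/KI in red, with open points for signals not well above background and a line at the mean of 3 mice. *Slc2a2* stands at 5.93 to 6.60 in the liver and is not well above background in any brain or muscle, whereas *Slc2a8* stays between 3.51 and 5.11 on all 24 arrays.

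*Slc2a1* encodes GLUT1, the transporter of basal uptake and of the endothelium of the brain. In the brain its levels were 3.76, 3.61 and 3.71 in WT1, WT2 and WT3 and 3.82, 4.06 and 4.08 in KI1, KI2 and KI3. In the heart they were 2.63, 2.45 and 1.72 in WT1, WT2 and WT3 and 2.37, 2.20 and 2.16 in KI1, KI2 and KI3. All 6 brains lay above all 6 hearts. Liver levels were 2.40, 2.13 and 1.30 in WT1, WT2 and WT3 and 1.76, 1.78 and 1.98 in KI1, KI2 and KI3, and muscle levels were 1.46, 1.15 and 1.78 in WT1, WT2 and WT3 and 2.04, 1.23 and 1.80 in KI1, KI2 and KI3. The brain mean of 3.84 ± 0.19 (SD, n = 6) was 3.00-fold above the heart mean of 2.25 ± 0.31 (difference 1.58, standard error 0.20, limma adjusted p = 6.6e-07). Its neighbours further down the order, heart and liver (adjusted p = 0.11) and liver and muscle (adjusted p = 0.15), did not differ beyond their spread, although the hearts exceeded the muscles by 0.68 (adjusted p = 0.0086). With quantile normalization the hearts also exceeded the livers, by 0.63 (adjusted p = 0.0054), and without WT3 the livers exceeded the muscles by 0.56 (adjusted p = 0.0071). The heart and muscle call was lost without WT2 (0.56, adjusted p = 0.077) or KI2 (0.58, adjusted p = 0.063), and the cause was not tested.

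*Slc2a2* encodes GLUT2, which lets glucose pass in both directions across the hepatocyte membrane. Its liver levels were 6.52, 6.02 and 5.93 in WT1, WT2 and WT3 and 6.33, 6.06 and 6.60 in KI1, KI2 and KI3, a spread of 0.67 over the 6 mice. None of the 6 brains and none of the 6 muscles was well above background, and 3 of 6 hearts were, WT1, WT2 and KI1, at -5.32, -4.68 and -5.62. The liver signal was at least 5890-fold higher than that of the brain and at least 3040-fold higher than that of the muscle, when each dim array was set at the higher of its own signal and the lowest signal well above background. These bounds were not tested. The test was of the measured signals, which differed by 14.24 and 13.72 (limma adjusted p = 6.3e-17 and 8.3e-17). No fold is given between heart and brain, since 3 of 6 hearts were not well above background. The measured signals there differed by -2.13 (brain minus heart, limma adjusted p = 6.6e-05). Nor is a fold given between heart and muscle, where the difference of 1.61 (adjusted p = 0.0021) turned to -0.24 with normexp background correction. Between liver and heart, where 3 of 6 hearts were not well above background, the difference of the measured signals was 12.11 (standard error 0.38, adjusted p = 7.9e-16). In the hearts the hepatocyte markers summed to 2.74, 5.39 and 3.22 against 5.13, 4.61 and 5.72 (WT1 to WT3 against KI1 to KI3), a sum carried in KI3 by *Cyp2e1*, at 5.55. *Alb* (albumin) was at -0.01, 2.94 and -0.46 against 1.42, 1.76 and -0.06 in the same order, highest in WT2, the heart in which *Slc2a2* was also highest, and the part of liver transcripts in the heart signal was not tested.

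*Slc2a3* encodes GLUT3, the main transporter of neurons. Its brain levels were 3.92, 3.28 and 3.62 in WT1, WT2 and WT3 and 3.48, 3.73 and 3.03 in KI1, KI2 and KI3. The muscle levels were 1.15, 0.45 and -1.04 in WT1, WT2 and WT3 and 0.56, -1.07 and -0.01 in KI1, KI2 and KI3, and the heart levels were -1.85, -0.63 and -1.22 in WT1, WT2 and WT3 and -0.81, -1.83 and -1.33 in KI1, KI2 and KI3. Muscle was the tissue in which *Slc2a3* varied most, with a range of 2.22 over the 6 mice, against 0.73 to 1.23 in the other tissues. In the liver it was -3.87, -3.80 and -3.59 in WT1, WT2 and WT3 and -3.81, -3.14 and -3.34 in KI1, KI2 and KI3, below the other 3 tissues in every mouse. The brain mean of 3.51 ± 0.32 was 11.3-fold above the muscle mean of 0.01 ± 0.90 (difference 3.50, standard error 0.33, limma adjusted p = 1.5e-08) and 137-fold above the liver mean of -3.59 ± 0.30 (SD, n = 6, adjusted p = 2.1e-13). Muscle was above heart by 1.28 (standard error 0.33, adjusted p = 0.004), with overlapping mice, a call that was lost without WT1 (0.89, adjusted p = 0.051), and heart was above liver by 2.31 (adjusted p = 4.9e-06).

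*Slc2a4* encodes GLUT4, the insulin-responsive transporter of striated muscle and fat, and was represented by 10 spots on each array. Its muscle levels were 8.10, 7.96 and 8.12 in WT1, WT2 and WT3 and 8.18, 7.80 and 7.79 in KI1, KI2 and KI3. In the heart they were 7.57, 7.23 and 7.74 in WT1, WT2 and WT3 and 6.98, 7.38 and 6.76 in KI1, KI2 and KI3, all below the muscles. The brain levels were far lower, at -1.12, -1.09 and -1.20 in WT1, WT2 and WT3 and -0.22, -0.74 and 0.61 in KI1, KI2 and KI3. In the liver *Slc2a4* was lowest, at -2.90, -3.84 and -3.46 in WT1, WT2 and WT3 and -3.67, -3.23 and -2.35 in KI1, KI2 and KI3. Muscle exceeded heart by 0.72 (standard error 0.24, 1.64-fold, limma adjusted p = 0.019), heart exceeded brain by 7.90 (0.24, 239-fold, adjusted p = 1.1e-15) and brain exceeded liver by 2.62 (0.24, 6.13-fold, adjusted p = 4.5e-09). The difference between muscle and heart was the weakest of these, and it was 0.40 with quantile normalization (adjusted p = 0.18) and 0.64 to 0.83 with each mouse left out, not called without WT1, WT2, WT3 or KI1.

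*Slc2a5* encodes GLUT5, which carries fructose. Its liver levels were 2.67, 1.99 and 1.46 in WT1, WT2 and WT3 and 1.97, 2.02 and 2.91 in KI1, KI2 and KI3. The brain levels were 0.50, 0.16 and 0.13 in WT1, WT2 and WT3 and 0.06, 0.32 and 0.40 in KI1, KI2 and KI3, within 0.44 of each other and below all livers. Heart levels were lower, at -5.10, -3.66 and -4.11 in WT1, WT2 and WT3 and -3.45, -4.08 and -2.07 in KI1, KI2 and KI3. In the muscle they were -1.74, -7.35 and -3.19 in WT1, WT2 and WT3 and -2.22, 1.94 and -1.70 in KI1, KI2 and KI3, where WT2 was not well above background. No other transporter varied as much within a tissue: the 6 muscles spanned 9.29. The liver mean of 2.17 ± 0.53 was 3.76-fold above the brain mean of 0.26 ± 0.17 (SD, n = 6, difference 1.91, standard error 0.76, limma adjusted p = 0.027), a call that was lost without WT3, KI1 or KI3 (1.79 to 2.02, adjusted p = 0.06 to 0.078) and with quantile normalization (1.64, adjusted p = 0.075). Brain exceeded muscle by 2.64 (adjusted p = 0.0044), by 1.85 without WT2 (adjusted p = 0.024) and by 0.92 in the *Rap1* KI/KI mice alone (adjusted p = 0.41), and muscle and heart did not differ beyond their spread (1.37, adjusted p = 0.15), but did without WT2 (2.34, adjusted p = 0.012) and with normexp background correction (1.37, adjusted p = 0.011).

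*Slc2a9* encodes GLUT9, through which hepatocytes take up urate for degradation. Liver levels were 2.93, 2.36 and 2.39 in WT1, WT2 and WT3 and 2.32, 2.39 and 3.02 in KI1, KI2 and KI3. In the heart they were -2.26, -2.62 and -1.72 in WT1, WT2 and WT3 and -2.56, -2.60 and -2.31 in KI1, KI2 and KI3, and in the muscle -3.69, -3.38 and -3.75 in WT1, WT2 and WT3 and -3.19, -3.10 and -3.19 in KI1, KI2 and KI3. The groups of 6 did not overlap between these tissues. Brain levels were -4.95, -5.04 and -5.36 in WT1, WT2 and WT3 and -4.92, -5.64 and -2.12 in KI1, KI2 and KI3, where KI3 stood apart from the other 5 mice. The liver mean of 2.57 ± 0.32 was 30.2-fold above the heart mean of -2.35 ± 0.34 (SD, n = 6, difference 4.91, standard error 0.39, limma adjusted p = 9.9e-10), heart was above muscle by 1.03 (0.39, adjusted p = 0.037), and muscle was above brain by 1.29 (0.39, adjusted p = 0.006). Without WT1, WT2, WT3 or KI1 the step from heart to muscle was 0.88 to 1.20 with adjusted p of 0.063 to 0.15, and with normexp background correction it was 0.34 (adjusted p = 0.2).

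*Slc2a8* encodes GLUT8, an intracellular transporter, and differed least between tissues, 2.17-fold from highest to lowest mean. Its mean level was 4.70 ± 0.30 in liver, 4.04 ± 0.21 in heart, 3.88 ± 0.18 in muscle and 3.58 ± 0.06 in brain (SD, n = 6). The 6 brains lay within 0.17 of each other, from 3.51 to 3.68. Liver exceeded heart by 0.66 (standard error 0.14, limma adjusted p = 0.00035), while heart and muscle (0.15, adjusted p = 0.4) and muscle and brain (0.31, adjusted p = 0.059) did not pass the threshold, although the 6 brains lay below the 6 muscles. With an intensity trend in eBayes, muscle exceeded brain at an adjusted p of 0.035. Differences of this size depended on the scaling: with quantile normalization, brain exceeded muscle by 0.29 (adjusted p = 0.032) and liver exceeded brain by 0.23 (adjusted p = 0.077) and heart by 0.17 (adjusted p = 0.2). Quantile normalization moved the median of all probes by -0.17 between liver and brain, -0.003 between liver and heart, 0.10 between brain and heart and 0.14 between brain and muscle. Normexp background correction moved the median by -0.36 between liver and muscle, -0.34 between brain and muscle and -0.26 between heart and muscle.

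Over the 42 tests, the 6 mice of 1 tissue lay wholly on one side of the 6 of the other in 28. By pair this held for 7 of 7 genes between liver and brain (61.1% of all probes), 5 between liver and heart (45.6%), 5 between liver and muscle (51.4%), 5 between brain and heart (47.6%), 4 between brain and muscle (51.7%) and 2 between heart and muscle (23.8%). Those between heart and muscle were *Slc2a4*, higher in the muscle, and *Slc2a9*, higher in the heart.

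**Figure D2:**
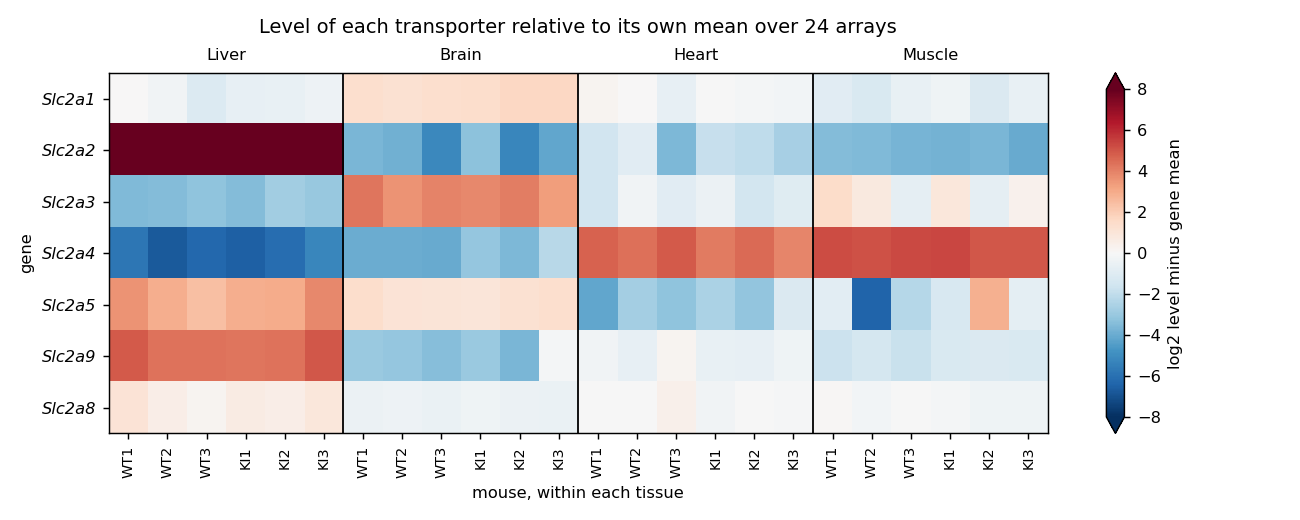
Level of each transporter (rows) on each of the 24 arrays (columns, 6 mice in each of 4 tissues) minus its own mean over the 24 arrays, in log2 units, with red above and blue below that mean. *Slc2a2* is red in the 6 livers only, *Slc2a4* in the 12 hearts and muscles only and *Slc2a3* in the 6 brains and some muscles, and *Slc2a8* is pale throughout. *Slc2a5* differs between muscles, from -7.35 in WT2 to 1.94 in KI2.

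The second comparison asked whether *Rap1* KI/KI mice differed from WT littermates in these transporters. No transporter changed past the threshold in any tissue. Of 28 pairs of gene and tissue, 26 were tested. *Slc2a2* was left out in the brain and the muscle, where it was well above background on 0 of 6 arrays and 3 were required. In limma 0 of 26 passed an adjusted p of 0.05 (7 tested in liver and heart each, 6 in brain and muscle each), as did 0% of all probes in each tissue. The smallest adjusted p of a transporter was 1 for liver and brain, 0.66 for heart and 0.94 for muscle. At an unadjusted p of 0.05, 1 of 26 passed, *Slc2a4* in the brain (1 of 6, against 2.62% of all probes in the brain), and 0 of 7 liver tests (2.13% of all probes), 0 of 7 heart tests (7.51%) and 0 of 6 muscle tests (2.48%) did. The median difference of the transporters was 0.18, 0.15, -0.17 and 0.04 in the liver, brain, heart and muscle, and that of all probes was -0.01, -0.05, -0.02 and -0.07. With 3 mice a side, exact permutation gives no p below 0.1.

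**Figure D3:**
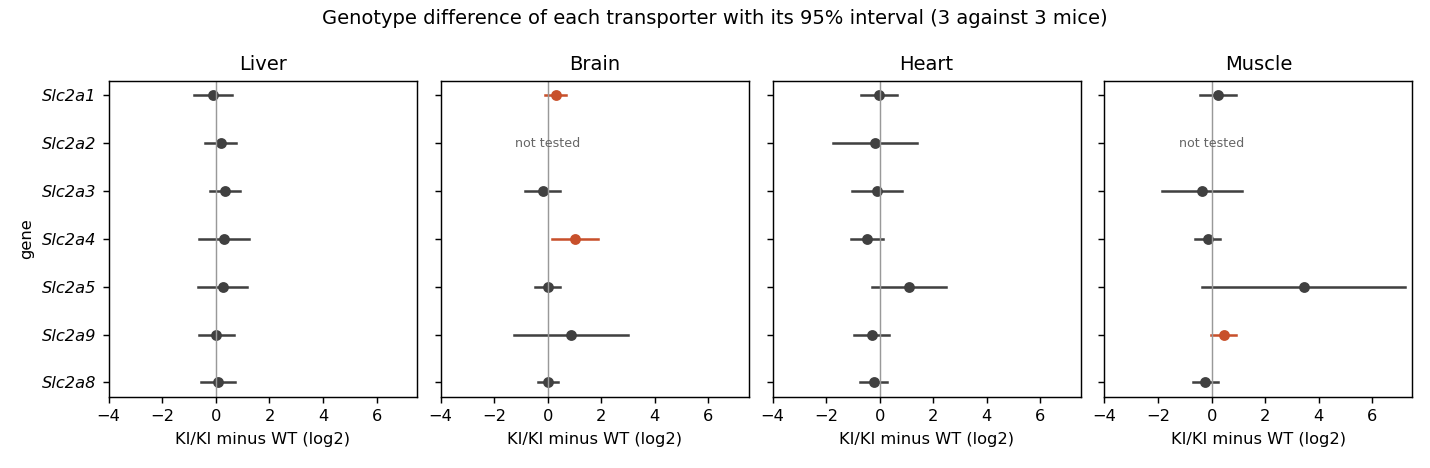
*Rap1* KI/KI minus WT (log2, horizontal axis) for each transporter (vertical axis) in the 4 tissues, with the estimate as a point and the 95% interval of limma as a line, 3 against 3 mice, and in red where the mice of both genotypes did not overlap. Only the interval of *Slc2a4* in the brain (0.17 to 1.86) lies wholly on one side of 0, and the widest, that of *Slc2a5* in the muscle, runs from -0.37 to 7.24.

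The mice of both genotypes did not overlap in 3 of the 26 pairs, *Slc2a1* and *Slc2a4* in the brain (2 of 6, against 7.73% of all probes) and *Slc2a9* in the muscle (1 of 6, against 6.44%), each higher in the *Rap1* KI/KI mice (as for 4% of all probes in the brain and 2.36% in the muscle). This held for 0 of 7 in the liver (5.84% of all probes, 2.77% higher) and 0 of 7 in the heart (14.7%, 6.03% higher). *Slc2a4* in the brain was 2.02-fold higher in the *Rap1* KI/KI mice (difference 1.02, standard error 0.35, unadjusted p = 0.026, limma adjusted p = 1, 2-sided exact permutation p = 0.1, with 3 of 3 *Rap1* KI/KI brains above all WT brains). The 3 WT brains were within 0.11 of each other, at -1.20 to -1.09, and KI3, at 0.61, was the highest of the *Rap1* KI/KI brains. Without KI3 the difference was 0.66 (unadjusted p = 0.029), and without any of WT1, WT2, WT3 or KI1 it was 0.98 to 1.07 with an unadjusted p of 0.051 to 0.07.

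KI3 also differed from the other brains in its cell type markers. The summed level of 7 microglia and macrophage markers was 5.80, 5.49 and 5.50 against 5.50, 5.75 and 6.77 (WT1 to WT3 against KI1 to KI3), that of 6 astrocyte markers was 6.38, 6.01 and 6.06 against 6.19, 6.48 and 6.96, and that of 7 neuron markers was 8.83, 8.43 and 8.56 against 8.71, 8.65 and 8.12. The 7 endothelial markers summed to 3.82, 3.18 and 3.58 against 3.66, 3.57 and 4.12, with *Cldn5*, *Cdh5*, *Kdr* and *Esam* highest in KI3 and *Pecam1*, *Tie1* and *Emcn* not. KI3 thus had the highest sum of microglial, astrocyte and endothelial markers and the lowest sum of neuron markers, and the part of these markers in the *Slc2a4* difference was not tested. *Slc2a1* in the brain, which the endothelium uses, was 0.29 higher in the *Rap1* KI/KI mice (standard error 0.17, 95% interval -0.12 to 0.70, limma adjusted p = 1). *Slc2a9* in the brain was 0.88 higher (standard error 0.88, adjusted p = 1), which rested on KI3, since without it the difference was -0.17.

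Further differences were found in muscle and heart, none past the threshold. *Slc2a5* in the muscle was 3.43 higher in the *Rap1* KI/KI mice (standard error 1.61, 95% interval -0.37 to 7.24, unadjusted p = 0.07, limma adjusted p = 0.94), with overlapping mice, since WT1 (-1.74) lay above KI1 (-2.22). It was 1.80 without WT2 and 2.13 without KI2, the lowest and the highest muscle. The signal of WT2 (-7.35) was not well above background, so the size of the difference is uncertain. In the heart *Slc2a5* was 1.09 higher (0.59, adjusted p = 0.66), and 0.52 without KI3. *Slc2a9* in the muscle was 0.45 higher (0.19, unadjusted p = 0.053, adjusted p = 0.94) and only 0.02 with normexp background correction. In the same muscles the summed level of 6 erythroid markers was 8.09, 7.53 and 8.35 against 9.22, 8.83 and 8.64 (WT1 to WT3 against KI1 to KI3), and that of 6 neutrophil markers was 0.23, 1.47 and -0.33 against 6.54, 1.44 and 3.67. *Slc2a4* in the heart was lower by 0.47 on the log2 scale (difference -0.47, standard error 0.25, adjusted p = 0.66). The hearts of the *Rap1* KI/KI mice were also lower in the sum of 7 skeletal fibre markers, at 6.68, 6.29 and 7.56 against 6.17, 6.02 and 4.85, and of 7 endothelial markers, at 6.24, 5.90 and 6.33 against 5.75, 5.88 and 5.41. That fibre sum was carried by *Acta1* (5.02, 4.87 and 6.47 against 4.88, 3.65 and 2.04) and *Ckm* (6.13, 5.60 and 6.65 against 5.39, 5.70 and 4.56). The dimmer *Actn3*, *Tnnt3*, *Myh4* and *Myh1* went the other way on average. The part of these markers in either difference was not tested.

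Muscles and hearts differed between mice in fat cell transcripts, and in both tissues the mouse highest in *Slc2a5* was highest in the sum of these transcripts. In the muscle the summed level of 7 adipocyte markers was 10.05, 7.60 and 9.17 in WT1, WT2 and WT3 and 8.99, 10.52 and 9.02 in KI1, KI2 and KI3, so that WT2, lowest in *Slc2a5*, was also lowest in these markers, and KI2, highest in *Slc2a5*, was highest. Between these extremes the order differed, with WT1 next to KI2 in the sum and KI3 next to it in *Slc2a5*. In the heart the sum was 7.90, 7.84 and 7.94 in WT1, WT2 and WT3 and 8.58, 8.14 and 9.39 in KI1, KI2 and KI3, again with KI3 highest and KI1 next, as for *Slc2a5*. The lowest heart sum was that of WT2, which in *Slc2a5* lay above KI2, WT3 and WT1. *Adipoq*, which encodes the fat cell hormone adiponectin, was at 5.62, 1.99 and 3.93 in WT1, WT2 and WT3 and 4.11, 6.56 and 4.20 in KI1, KI2 and KI3 in the muscle. In the heart *Adipoq* was -4.23, 0.72 and -0.15 in WT1, WT2 and WT3 and 4.05, 0.42 and 4.86 in KI1, KI2 and KI3, with WT1 lowest, as it was in *Slc2a5*. The sum follows its brightest markers, and single markers differed more. Of 6 markers tested in the heart, 5 were higher in the *Rap1* KI/KI mice at an unadjusted limma p of 0.05 (7.51% of all probes passed). Their median difference was 3.75 (-0.02 for all probes), with no adjusted p below 0.65. In the muscle 0 of 7 passed (2.48% of all probes), with a median difference of 1.02. Of the 7 markers, 7 were well above background in every muscle but WT2, where *Lep* was not, and in the hearts of KI1 and KI3, against 6 in the other hearts, where *Lep* was not. The part of fat cell transcripts in the *Slc2a5* differences was not tested.

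**Figure D4:**
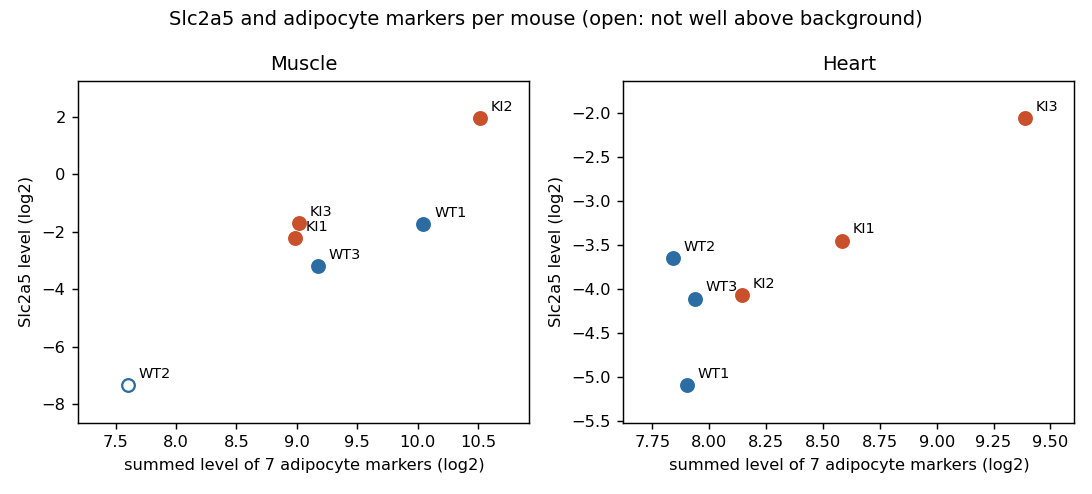
*Slc2a5* level (log2, vertical axis) against the summed level of 7 adipocyte markers (log2, horizontal axis) in the muscle (left) and the heart (right), 1 point per mouse, WT in blue and *Rap1* KI/KI in red, open where *Slc2a5* was not well above background. In both tissues the mouse with the highest marker sum, KI2 in the muscle at 10.52 and KI3 in the heart at 9.39, has the highest *Slc2a5*.

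Whether the genotype difference of a transporter itself differed between tissues was asked with an F test over the 3 interaction contrasts in the fit of 24 arrays. It passed for 0 of 7 transporters at an adjusted p of 0.05 (0% of all 42463 probes) and for 1 of 7 at an unadjusted p of 0.05 (2.93% of all probes), *Slc2a4* (F = 3.74, unadjusted p = 0.029, limma adjusted p = 1). Its genotype difference was 1.49 larger in the brain than in the heart (standard error 0.47, unadjusted p = 0.0052, adjusted p = 0.92) and 1.16 larger in the brain than in the muscle (0.47, unadjusted p = 0.024, adjusted p = 1).

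The other genes of sugar handling were read from 8 written lists with 73 genes. *Slc2a13*, an inositol transporter, and *Slc2a6*, a lysosomal transporter, were highest in the brain, at 3.86 ± 0.36 and 2.93 ± 0.14 (SD, n = 6), 38.6-fold and 32.2-fold above the heart (limma adjusted p = 9.7e-12 and 1.5e-11). *Slc2a10* was lowest in the liver, at -5.37 ± 0.32 against -2.96, -2.17 and -2.75 in the brain, heart and muscle. *Slc2a7* was not well above background on any array. In the muscle, KI3 had the highest *Slc2a6* (-0.27, against -3.41 to -2.24 in the other 5) and *Slc2a13* (0.67, against -1.47 to -0.60). That muscle also had the highest summed level of neuron markers, 5.70 with 6 of 7 genes measured, against 3.58 to 4.27 in the other 5, and the part of these markers was not tested. The sodium-coupled glucose cotransporters stayed below the 75th percentile in every tissue, and the highest mean, that of *Slc5a10* in the liver, was -1.93 ± 0.23.

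Genes that trap glucose in cells or release it differed in type between tissues. Of 10, 6 were higher and 4 lower in the liver than in the brain (79% of all probes differed), and 6 were higher and 3 lower in the liver than in the muscle (71.1%). *Hk1*, a high-affinity hexokinase, was at 6.14 ± 0.22 in the brain and 5.78 ± 0.32 in the heart (SD, n = 6), 37.6-fold and 29.4-fold above the liver. *Hk2*, the hexokinase of insulin-responsive tissue, was at 5.13 ± 0.44 in the heart and 5.74 ± 0.42 in the muscle, 150-fold and 229-fold above the liver. *G6pc*, which releases free glucose and was named after its values had been seen, was 4680-fold higher in the liver than in the brain and 2120-fold higher than in the muscle (the largest limma adjusted p of these differences was 3.4e-13, that of *Hk1* between liver and heart). *Hk2* and *Slc2a4* were thus highest in the same pair of tissues, and *G6pc* and *Slc2a2* were both highest in the liver.

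Of 5 fructose and polyol genes, 4 were higher in the liver than in each of the other tissues and 1 was lower, *Akr1b3* (aldose reductase), where 79%, 66.7% and 71.1% of all probes differed between liver and brain, heart and muscle. *Khk*, which phosphorylates fructose, was at 8.22 ± 0.08 in the liver, 76.8-fold, 24.8-fold and 19.5-fold above the brain, heart and muscle. Of 6 urate genes, 5 were tested and all 5 were higher in the liver than in each other tissue. *Uox*, which degrades urate, was at 8.16 ± 0.33, and *Xdh*, which makes it, at 4.34 ± 0.13 in the liver against -2.32, 2.24 and 1.35 in the brain, heart and muscle.

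Of 22 genes of insulin signalling and GLUT4 traffic, 14 were higher and 4 lower in the muscle than in the liver (71.1% of all probes differed), 13 were higher and 4 lower in the muscle than in the brain (70.2%), and 9 were higher, 5 lower and 8 not called in the muscle against the heart (43.5%). *Akt2*, the kinase that relays insulin to GLUT4, was at 6.21 ± 0.18 in the muscle (SD, n = 6), 1.98-fold above the liver (limma adjusted p = 3e-06), and *Rab10*, a GTPase of GLUT4 vesicles, was 4.48-fold above it (9.5e-12). *Tbc1d4*, which restrains these vesicles and was named after its values had been seen, was 14.2-fold above it in the muscle and 20.3-fold in the heart. *Txnip*, which promotes the uptake of transporters from the surface, was lowest in the brain, at 0.23 ± 0.67, 43.2-fold below the muscle (adjusted p = 1.8e-11). Of 15 regulators of transporter genes, 10 were higher and 3 lower in the liver than in the brain (79% of all probes differed), among them *Mlxipl*, which responds to carbohydrates, 110-fold higher. *Hnf4a*, a hepatocyte factor named after its values had been seen, was at 7.54 ± 0.30 in the liver and well above background in 1 of 6 brains, 6 of 6 hearts and 4 of 6 muscles.

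**Figure D5:**
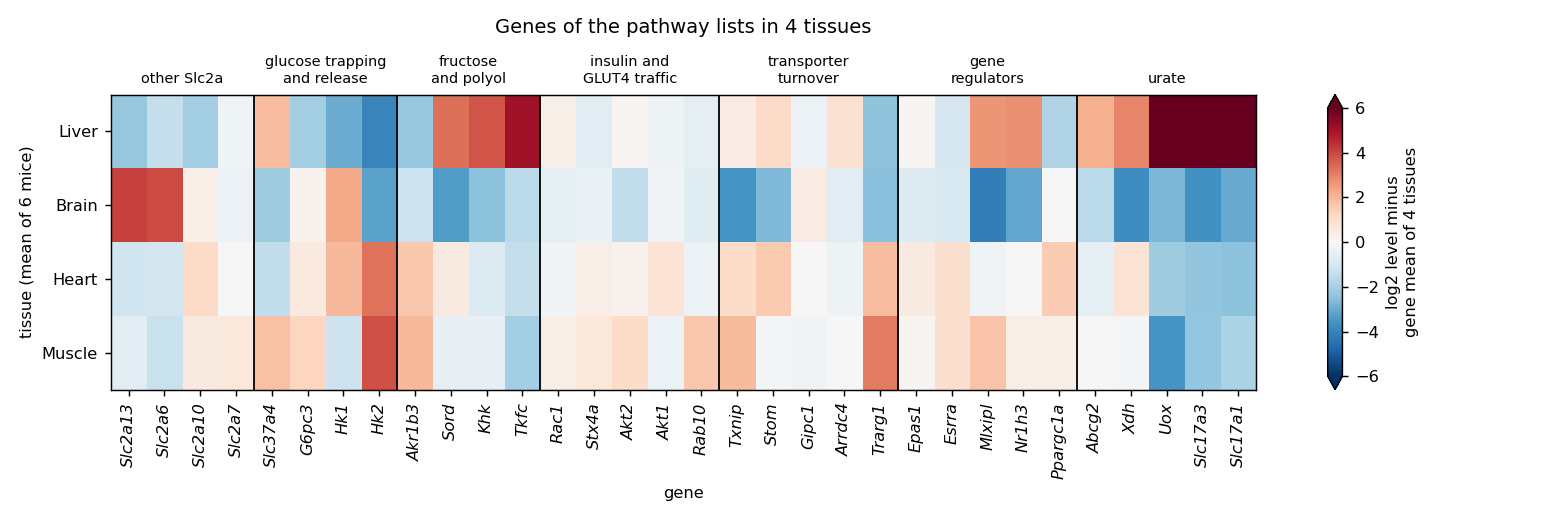
Mean level of 6 mice in each tissue (rows) minus the mean of the 4 tissues, in log2 units, for 32 genes of 7 lists (columns), chosen among the 5 of the highest level per list. The fructose and urate genes other than *Akr1b3* are red in the liver, *Slc2a13* and *Slc2a6* in the brain and *Hk2* in the heart and the muscle.

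Between genotypes, 0 of these 73 genes were called at an adjusted p of 0.05 in a tissue, with 71, 62, 62 and 58 tested in the liver, brain, heart and muscle. At an unadjusted p of 0.05, 1, 4, 5 and 0 passed, none with a limma adjusted p below 0.65. Of all probes tested, 2.13%, 2.62%, 7.51% and 2.48% passed in the same order of tissues, and the counts are read against those shares. In the brain the genes that passed were *Hk2* (1.03 higher in the *Rap1* KI/KI mice, standard error 0.40), *Slc2a10* (0.51), *Rab13* (0.50) and *Nr1h3* (0.51), all higher. *Hk2* in the brain was -1.57, -1.99 and -2.08 in WT1, WT2 and WT3 and -1.14, -1.42 and 0.02 in KI1, KI2 and KI3, with KI3 highest, as in *Slc2a4*. In the heart they included *Trarg1* (1.54) and *Slc2a13* (0.99), which were higher, and *Aspscr1* (-0.71) and *Stom* (-0.62), which were lower. *Trarg1*, a fat cell regulator of GLUT4 traffic, was at -2.17, -2.33 and -2.01 in WT1, WT2 and WT3 and -0.22, -2.07 and 0.39 in KI1, KI2 and KI3 in the heart, highest in KI1 and KI3, the hearts with the highest adipocyte marker sums, and the part of these markers was not tested. In the liver it was *Slc5a1* (0.78 higher).

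Genes were also ranked by how closely their levels resembled those of a transporter over the 24 arrays. For each transporter, the 3 named genes with the highest Pearson correlation of log2 levels are given; the arrays share 6 mice and 4 tissues, so the coefficients mainly describe tissue differences. *Slc2a2* was most like *Serpina10* and *Mat1a* (r = 0.997 each) and *Nr1i3* (0.996), and *Slc2a4* like *Sgca* (0.997), *Cav3* and *Myom2* (0.996 each), components of the muscle membrane and sarcomere. *Slc2a3* was most like *1110051M20Rik* and *Fndc10* (0.984 each) and *Abcg4* (0.983), and *Slc2a1* like *Mex3b* (0.948), *Msl3l2* (0.947) and *Ptchd1* (0.945). *Slc2a9* was most like *Slc35d2* and *Trim14* (0.988 each) and *Dhx58* (0.986). *Slc2a5* was most like *Elovl6* (0.955), a fatty acid elongase, *Mmd* (0.923) and *Mycl* (0.919), and *Slc2a8* like *Mtx1* (0.956), *Apeh* (0.951) and *Mterf4* (0.946). As with *Slc2a5*, the level of *Elovl6* ranged widely over the 6 muscles, from -1.54 to 4.82, but only from 4.73 to 5.58 over the 6 livers.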

How the data were processed

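RNA of liver, brain, heart and skeletal muscle from 6 male mice, 3 of each genotype, was measured on 24 Agilent arrays of 1 color. The deposited scanner files hold processed signal intensities, which the authors read with Agilent Feature Extraction 12.0.3.1 (background-subtracted and detrended, not scaled between arrays). The authors also deposited score values in a further file, which were recomputed to within 0.005 as z-scores of log10 processed signals within each array, and which served as an alternative. The processing uses no genome build. Members and gene lists were chosen with earlier results of these data known.

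Control spots (3671) were left out, spots of a probe were averaged, and log2 signals were scaled to the 75th percentile of each array. Each gene was read from its probe with the highest mean level. Genotypes were compared within each tissue, over probes that 3 or more of the 6 arrays measured well above background, and tissues and the interaction in 1 fit of 24 arrays (limma 3.58.1, statmod 1.5.0, data.table version 1.17.8, R 4.3.3, Benjamini-Hochberg adjustment over all probes tested). Scripts were tested on simulated data. Exact tests used 10 splits, so that the smallest 2-sided p is 0.1. Each mouse gave 1 array per tissue, and p-values cover the spread between these mice.

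The labels tie the same 6 animals to all tissues. Over 36 pairs of tissues within a mouse, deviations from group means correlated at -0.219 to 0.262 (median 0.047, above 0.1 in 9), and the consensus correlation with the mouse as a block was 0.026. Named were all members, the other *Slc2a* genes, up to 5 genes of the highest mean level per list, markers that moved with a named result, and for each member the 3 genes of most similar level. Genes outside this rule are named as such, and some genes and a motif that were examined are not reported here. Results were recomputed with normexp (offset 50) in place of the processed signal, quantile normalization, these scores, an intensity trend, other filters on dim probes, blocks for mouse, age and slide, 1 genotype alone, and leaving out arrays or each mouse.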

Additional observations from a re-analysis of the deposited data

Results flagged for a closer look

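In 28 groups of 6 arrays (7 transporters in 4 tissues), 2 held a mouse that lay far from the other 5 by Dixon's ratio of its gap to the whole range, a ratio that chance exceeds in about 1 group in 20. *Slc2a9* in the brain of KI3 was at -2.12, against -5.64 to -4.92 in the other 5 brains, a ratio of 0.795. That brain was also highest in microglia and macrophage, astrocyte and endothelial marker sums, whose part was not tested. *Slc2a8* in the heart of WT3 was at 4.43, a ratio of 0.633.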

How the results depend on the processing

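The small number of mice per genotype limits what could be detected between genotypes, and differences of low signals such as those of *Slc2a2* outside the liver are not measured well above background. No transporter passed an adjusted p of 0.05 between genotypes in any of the 18 settings run, in limma, with a lowest adjusted p of 0.61, 0.68, 0.49 and 0.51 in liver, brain, heart and muscle, nor in the interaction in any of 11 settings (lowest 0.78). Each transporter has 1 probe, so the mean over all probes gives no other value. The replicate block of mouse left the 36 calls between tissues at 36 and the calls between genotypes at 0.

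Of the counts of transporters that differed between tissues, that between heart and muscle (5) was 2 without the heart arrays of KI1 and KI3 and the muscle array of KI3, 1 in WT mice only, 1 in *Rap1* KI/KI mice only, and 2 to 5 with each mouse left out (2 without WT1, 3 without WT2, WT3 or KI1). That between brain and muscle (5) was 3 in *Rap1* KI/KI mice only. The cause was not tested, although fewer arrays entered these fits. Of 660 values between tissues under alternatives, 607 kept direction and side of the threshold, 41 fell below it, 9 passed it and 3 turned sign. These were *Slc2a2* between brain and muscle with quantile normalization (0.355, from -0.518), *Slc2a8* between brain and muscle with quantile normalization (0.285, from -0.306) and *Slc2a2* between heart and muscle with normexp (-0.241, from 1.608).

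Of 414 values between genotypes, 30 turned sign, none of them called. By setting these were *Slc2a5* in the brain with quantile normalization (0.017) and the score table (0.007), *Slc2a8* in the brain with normexp (-0.033), and *Slc2a1* in the heart with quantile normalization (0.107), normexp (0.069) and the score table (0.003). With each mouse left out, the liver values ranged from -0.422 to 0.128 for *Slc2a1*, -0.051 to 0.61 for *Slc2a4*, -0.04 to 0.579 for *Slc2a5*, -0.203 to 0.204 for *Slc2a9* and -0.114 to 0.306 for *Slc2a8*. The brain values ranged from -0.075 to 0.114 for *Slc2a5*, -0.169 to 1.59 for *Slc2a9* and -0.037 to 0.048 for *Slc2a8*. The heart values ranged from -0.295 to 0.16 for *Slc2a1*, -0.953 to 0.383 for *Slc2a2* and -0.399 to 0.215 for *Slc2a3*, and the muscle values from -0.972 to 0.123 for *Slc2a3*.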
